A study of Sus scrofa with 24 samples.

Results

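The genes described here are 7 genes of the vascular and lymphatic endothelium: VEGFA, PECAM1, NOS3, PROX1, LYVE1, ICAM1 and VWF. They were found on the arrays by symbol, either as the gene name printed with a probe or through the transcript accession given there. That gave 16 probes of 43603, all 16 of them among the 34359 probes kept for testing, and 7 genes of the 6204 that had a symbol and a kept probe. ICAM1 is printed on the array in another spelling and was matched by its RefSeq accession.

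Heart muscle of 9 pigs, of domestic stock, was measured after a reperfused infarct made without opening the chest, on 24 single-colour Agilent arrays. Treatment was given 1 month after the infarct by percutaneous injection into heart muscle, and tissue was taken 1 month later. The secretome arm (6 pigs) received the secretome of apoptotic peripheral mononuclear cells, that is, the products those cells release. The labels call the other 3 pigs not treated, and they are taken here as the arm that received medium as placebo. All pigs of both arms carried the infarct and had 250 mg aspirin and 300 mg clopidogrel beforehand, then 100 mg and 75 mg daily, so no array comes from a healthy heart. The infarct core and the border zone, into which the injections went, were sampled in all 9 pigs, and a normal region of the same hearts in 6 pigs, of which 2 were medium pigs and 4 secretome pigs. The labels give no age or sex for the pigs and name no cell type: each sample is a piece of whole heart muscle.

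Endothelial cells line every blood and lymph vessel. Vascular endothelial growth factor A (VEGFA) is secreted by many cells, cardiomyocytes included, and drives the growth of blood vessels through receptors on the endothelium. PECAM1 (CD31) is an adhesion protein of endothelial cell junctions, NOS3 is the endothelial nitric oxide synthase that keeps vessels relaxed, and VWF is the clotting glycoprotein that endothelium and platelets store and release. ICAM1 is the surface protein to which leukocyte integrins bind when endothelium is activated, and immune cells and fibroblasts carry it too. PROX1 is the transcription factor that sets lymphatic identity and is also made in heart muscle cells, and LYVE1 is the hyaluronan receptor of lymphatic endothelium that resident macrophages also carry.

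Each probe is a single 60-base sequence, and the start given with it in the array files is taken here as its first base in the transcript record. VEGFA and PROX1 had 3 probes each, PECAM1 4, NOS3 and VWF 2, and ICAM1 and LYVE1 only 1. The sequences below, written 5′ to 3′ in lower case with no part marked, are those on which the main results rest: the brightest probes of VEGFA, VWF and PROX1, the only LYVE1 probe, and a second probe of VEGFA and of VWF with which the first can be compared.
VEGFA, base 366: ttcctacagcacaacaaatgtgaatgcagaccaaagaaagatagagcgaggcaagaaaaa
VEGFA, base 462: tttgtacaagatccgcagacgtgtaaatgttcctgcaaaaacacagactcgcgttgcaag
PROX1, base 1961: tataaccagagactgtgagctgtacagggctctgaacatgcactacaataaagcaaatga
LYVE1, base 423: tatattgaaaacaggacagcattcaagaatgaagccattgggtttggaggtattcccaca
VWF, base 8303: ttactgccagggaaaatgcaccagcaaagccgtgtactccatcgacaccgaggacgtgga
VWF, base 4546: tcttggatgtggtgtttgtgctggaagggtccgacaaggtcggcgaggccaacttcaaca

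All 24 arrays had a signal well above background for 13 of the 16 probes, and 23 arrays had one for the 3 others (NOS3 base 1675, PROX1 base 346 and VWF base 4546), and none was saturated. The levels below are those of the brightest kept probe of a gene, as log2 of the processed signal minus the 75th percentile of the same array, so that 0 is that percentile and 1 unit is a factor of 2. Levels of different probes are not compared, since probes differ in how strongly they bind.

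Several facts of the whole set touch every value. Scanning took place in 2 series, each of 12 arrays, with all arrays of a pig in the same series, and each series held pigs of both arms (5 pigs in series 1, 4 in series 2). The 75th percentile of the signal ran from 210 to 617 over the arrays. The border-zone array of medium pig 40 had the lowest percentile and the smallest share of probes well above background, 61.5%, and the infarct-core array of the same pig had by far the lowest summed level of cardiomyocyte markers. Several differences below moved without these arrays or without pig 40, and values without them stand beside the larger ones. Adjusted p-values are those of limma with Benjamini-Hochberg adjustment over all 34359 kept probes, with a threshold of 0.05, and ± after a difference is its standard error. The region differences weigh the medium and secretome arms equally.

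**Figure D1:**
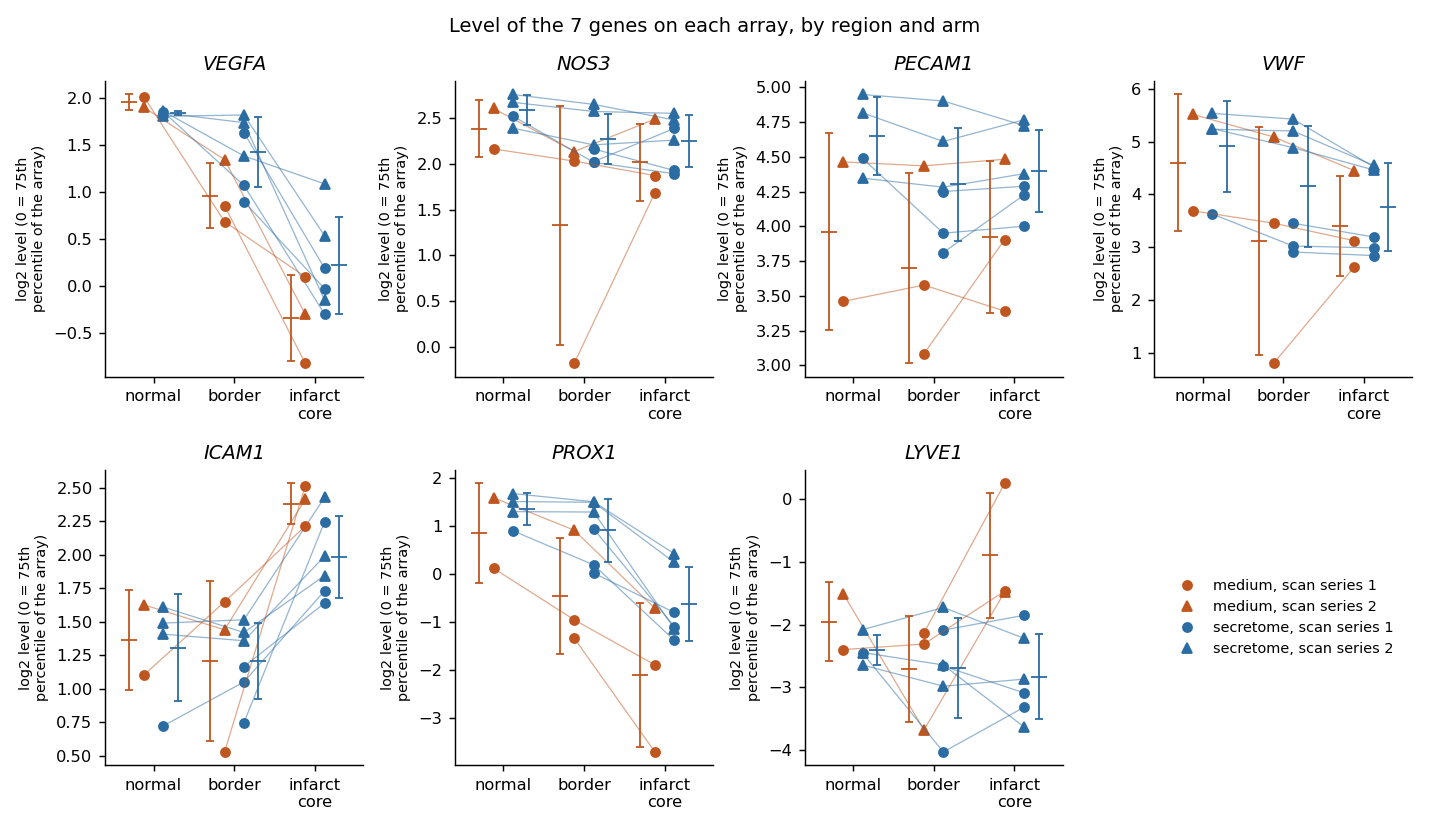
Level of each of the 7 genes on every array, as log2 of the signal over the 75th percentile of the array (vertical axis), by region (horizontal axis), with medium in orange, secretome in blue, circles for scan series 1, triangles for scan series 2 and lines joining the arrays of a pig; horizontal ticks with bars are the group mean ± SD (medium n = 2, 3 and 3, secretome n = 4, 6 and 6). VEGFA and PROX1 are lower in the infarct core than in the border zone in all 9 pigs, ICAM1 is higher in all 9, and VWF separates by scan series within each region.

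In the infarct core against the normal region, 3 of the 7 genes passed the test: VEGFA and PROX1 were lower and ICAM1 was higher. NOS3, PECAM1, VWF and LYVE1 did not pass. Over all genes 58.3% passed in this comparison, 27.4% higher and 30.9% lower, so 3 of 7 is no larger a share than that of all genes. In bulk tissue of this kind, fewer cells of a type and less RNA per cell cannot be told apart.

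VEGFA, the growth factor, was highest in the normal region and lowest in the infarct core. Its log2 level was 1.81 at the lowest, 1.86 at the median and 2.02 at the highest over the 6 normal arrays, and 0.69, 1.35 and 1.82 over the 9 border arrays. In the infarct core the 9 arrays ran from -0.82 through a median of -0.03 to 1.09. The normal and infarct ranges do not overlap, while the border range meets the normal one at its top and overlaps the infarct one. The normal arrays are also the most alike, with an SD of 0.07 (n = 6) against 0.41 in the border zone and 0.55 in the infarct core (n = 9 each).

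VEGFA was 3.69-fold lower in the infarct core than in the normal region (log2 difference -1.88 ± 0.18, adjusted p = 1.92e-07), and lower in 6 of 6 pigs with both regions. Pig 15 of the secretome arm showed the smallest of these falls, -0.77, and kept the highest infarct level of all, 1.09. Against the border zone the infarct core was lower by 2.39-fold (-1.25 ± 0.16, adjusted p = 8.73e-06), in 9 of 9 pigs. The border zone was lower than the normal region by -0.63 ± 0.18 (95% interval -1.01 to -0.25), which did not pass over all probes (adjusted p = 0.114), with 5 of 6 pigs lower and pig 11 level. The order normal, border, infarct core is therefore separated by the test at its lower step only.

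Both other VEGFA probes gave the same direction in the fit. Within pigs each was lower in the infarct core than in the border zone in 8 of 9. Against the normal region the probe at base 462 was lower in 6 of 6 pigs and that at base 1648 in 5 of 6. The probe at base 462 differed by -1.42 ± 0.26 between infarct core and normal region (adjusted p = 0.000118) and the probe at base 1648 by -1.44 ± 0.28 (adjusted p = 0.000182). Both differences are smaller than that of the brightest probe, and all 3 probes passed the test in this comparison and against the border zone (53% and 46.7% of all kept probes did).

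PROX1, the transcription factor of lymphatic identity, showed the largest fall of the 7 genes. The level ran from 0.13 through 1.41 to 1.69 over the 6 normal arrays, from -1.33 through 0.92 to 1.51 over the 9 border arrays, and from -3.70 through -1.09 to 0.43 over the 9 infarct arrays. The lowest value came from the infarct core of medium pig 40, and the highest infarct values, 0.43 and 0.25, came from secretome pigs 15 and 11, which overlap the lowest normal array (pig 18). Within pigs the order was the same everywhere: the infarct core was below the border zone in 9 of 9 pigs, and the border zone below the normal region in 6 of 6.

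PROX1 differed by -2.18 ± 0.29 between infarct core and normal region, or 4.53-fold lower (adjusted p = 3.56e-06), and by -1.59 ± 0.25 between infarct core and border zone, or 3.01-fold lower (adjusted p = 4.15e-05). Its probes at bases 42 and 346 gave -2.07 ± 0.37 and -2.34 ± 0.39 for the infarct core against the normal region, and both passed. The border zone differed from the normal region by -0.59 ± 0.29, which did not pass (adjusted p = 0.352). Without the infarct-core array of pig 40 the fall against the normal region was -1.99 (adjusted p = 3.25e-06).

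VEGFA and PROX1 were lower in the infarct core, as were the markers of heart muscle cells. All 8 measured genes of the 12 listed cardiomyocyte markers were called lower in the infarct core than in the normal region, as were 30.9% of all genes. Their median difference was -2.42, from -3.00 for MB, the oxygen-storing myoglobin, to -1.13 for MYH7, the slow myosin heavy chain. These are values of the brightest probes, and the 20 probes of ATP2A2, another of the 8, ranged from -2.85 to 0.10. Their summed level, on the linear scale where 1 is the 75th percentile, ran from 4697 to 6906 in medium normal arrays, 2743 to 5923 in medium border arrays and 125 to 3202 in medium infarct arrays. In the secretome arm the same sum ran from 4642 to 7548, 3753 to 7391 and 1492 to 5762. All 8 were well above background on every array, as heart muscle tissue should show. The 2 infarct arrays with the highest sums, 5762 and 5425 (pigs 15 and 11), are also those with the highest VEGFA and PROX1 levels there. The next sum, 3202 in medium pig 10, came with a VEGFA level of -0.30. Medium pig 18 had a smaller sum, 1984, and a higher VEGFA level, 0.10. Between border zone and normal region the 8 markers had a median difference of -0.09, with none called. VEGFA stood at -0.63 and PROX1 at -0.59 there, and neither passed. The part of heart muscle content in the 2 results was not tested.

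**Figure D2:**
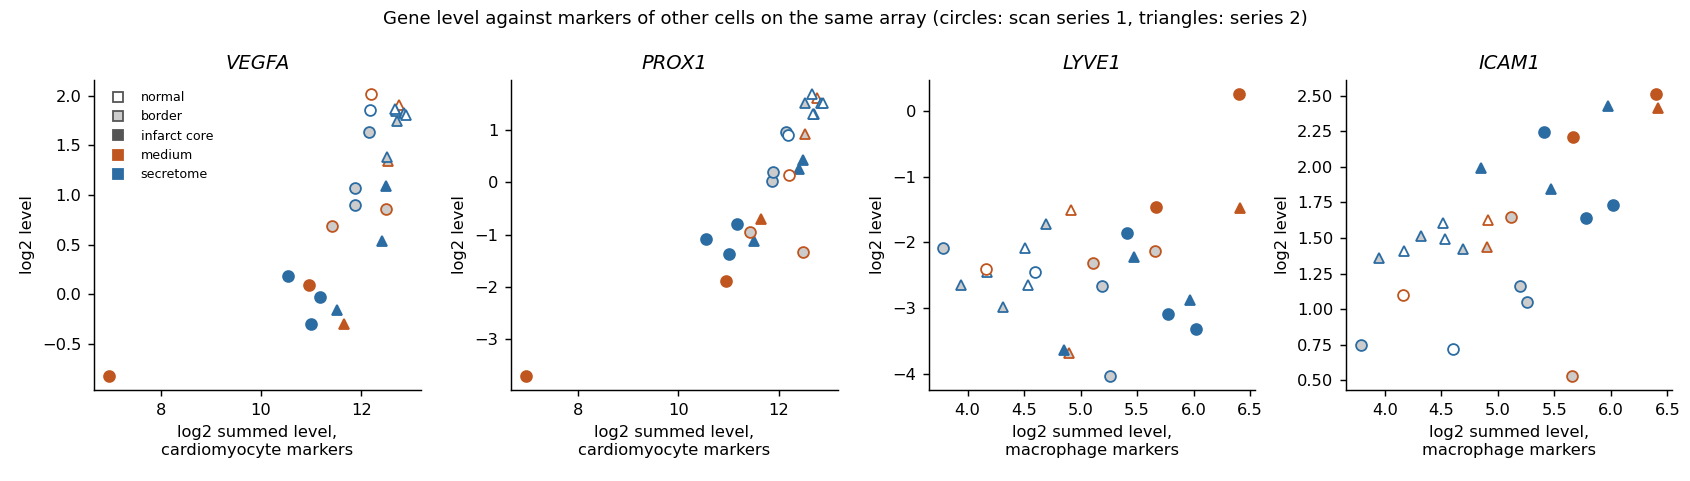
Log2 level of a gene (vertical axis) against the log2 summed level of the measured markers of another cell type on the same array (horizontal axis), cardiomyocyte markers for VEGFA and PROX1 and macrophage markers for LYVE1 and ICAM1, one point per array (24); fill gives the region, colour the arm, circles scan series 1 and triangles series 2. VEGFA and PROX1 are lowest on the array with the lowest cardiomyocyte sum (medium pig 40, infarct core), and LYVE1 is highest on that pig's infarct array, where the macrophage sum is 84.7. The highest macrophage sum, 85.3, is on the infarct array of medium pig 10, where LYVE1 is -1.48.

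LYVE1, the other lymphatic gene, did not pass between infarct core and normal region. Its level ran from -2.64 through -2.42 to -1.51 in the normal region, from -4.03 through -2.64 to -1.73 in the border zone and from -3.63 through -2.22 to 0.25 in the infarct core. The 3 ranges overlap, and a single array, the infarct core of medium pig 40, lay above 0. Between infarct core and normal region the difference was 0.10 ± 0.28 (adjusted p = 0.781), with 2 of 6 pigs higher.

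Against the border zone LYVE1 was higher in the infarct core by 0.83 ± 0.25, or 1.78-fold (adjusted p = 0.00825), in 6 of 9 pigs. That value is the mean of unlike arms: the 3 medium pigs were all higher, by 0.84, 2.20 and 2.39, while the 6 secretome pigs ran from -0.99 to 0.71 with group means of -2.69 in the border zone and -2.83 in the infarct core. The test of that difference between arms is given with the arms and did not pass. The call was lost without the infarct array of pig 40, where the difference was 0.64 (adjusted p = 0.0522), and within scan series 1 and 2 taken alone it was 0.89 and 0.87 (adjusted p = 0.124 and 0.123). The 5 measured macrophage markers were higher in the same comparison, by a median of 0.96, and their part in the LYVE1 call was not tested. The border zone lay below the normal region by -0.73 ± 0.28, which did not pass (adjusted p = 0.243).

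NOS3, which makes nitric oxide in the endothelium, did not pass between any pair of regions. The level ran from 2.17 through 2.57 to 2.76 in the normal region, from -0.18 through 2.14 to 2.65 in the border zone and from 1.69 through 2.26 to 2.56 in the infarct core. The array at -0.18 is the border zone of medium pig 40, the array with the lowest 75th percentile, and the ranges overlap with or without it. The infarct core differed from the normal region by -0.17 ± 0.20 (95% interval -0.58 to 0.25, adjusted p = 0.514), although the infarct core was the lower of the pair in 6 of 6 pigs, by -0.12 to -0.63. Without the border array of pig 40 the difference was -0.28 and passed (adjusted p = 0.0413).

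PECAM1, the junction protein, did not pass between any pair of regions. The level ran from 3.46 through 4.48 to 4.95 in the normal region, from 3.08 through 4.25 to 4.90 in the border zone and from 3.39 through 4.29 to 4.77 in the infarct core, so that the ranges nearly coincide. The infarct core differed from the normal region by -0.05 ± 0.15 (95% interval -0.37 to 0.27, adjusted p = 0.800). Its sign turned under quantile normalization, where it was 0.27 and did not pass. The infarct core differed from the border zone by 0.16 ± 0.13 (adjusted p = 0.331), a value that was 0.01 without the border array of pig 40. It rose to 0.42 and passed under quantile normalization (adjusted p = 0.0130) and in the authors' deposited values (adjusted p = 0.0111), and turned to -0.07 under normexp background correction. For the infarct core against the normal region the 3 other probes gave 0.02, 0.09 and 0.11. Against the border zone the same probes gave 0.19, 0.24 and 0.22, and none of these values passed.

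VWF, the clotting glycoprotein, split by scan series more than by region. The level ran from 3.63 through 5.24 to 5.54 in the normal region, from 0.80 through 3.46 to 5.43 in the border zone and from 2.63 through 3.19 to 4.55 in the infarct core. In the secretome arm, where each series held 3 pigs, series 2 lay above series 1 by 2.04 (border zone) and 1.5 (infarct core), the widest gaps of the 7 genes. PROX1 came next, with 1.05 and 0.93, and the other 5 genes lay between -0.15 and 0.59. Whether this follows the pigs or the scanning cannot be told apart.

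Within pigs VWF was lower in the infarct core than in the normal region in 6 of 6, by -0.57 to -1.06. The fitted difference was -0.75 ± 0.36 and did not pass (adjusted p = 0.0877). It passed with scan series as a covariate (-0.71, adjusted p = 0.0313), within scan series 2 (-0.95, adjusted p = 0.0103) and without the border array of pig 40 (-0.90, adjusted p = 0.00813), but not within scan series 1 (-0.58, adjusted p = 0.384). The dimmer VWF probe, at base 4546, passed as it stands (-1.19 ± 0.25, adjusted p = 0.000383), so the 2 probes shown above had the same direction and differed in the call. Of the 4 measured platelet genes, whose cells also store VWF, 2 were lower in the infarct core than in the normal region and none was higher. The 2 were GP1BB and GP9, and the 2 GP9 probes disagreed in sign (-0.39 and 0.19). PPBP, which did not pass, was well above background on only 5 arrays. Their summed level ran from 3.83 to 4.93, 2.21 to 5.26 and 2.50 to 3.18 in medium normal, border and infarct arrays and from 3.56 to 6.03, 2.38 to 5.17 and 1.99 to 4.0 with secretome, and their part in the VWF values was not tested.

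**Figure D3:**
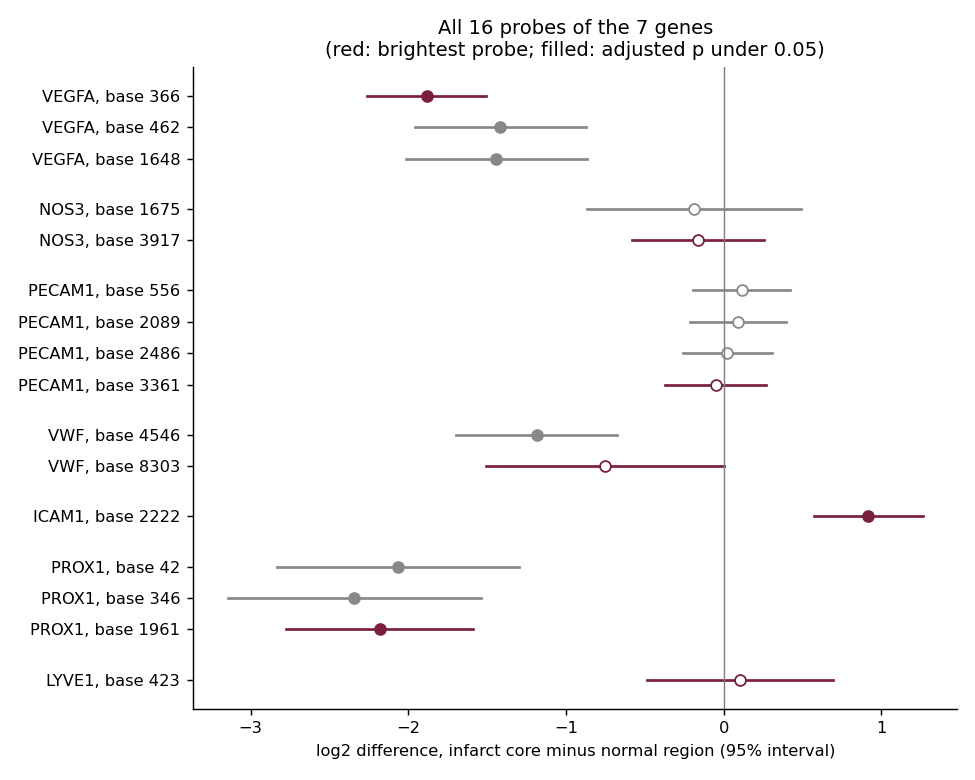
Fitted log2 difference, infarct core minus normal region (horizontal axis), for all 16 probes of the 7 genes, each with its 95% interval; red marks the brightest probe of a gene, grey the others, and filled points have an adjusted p under 0.05. All 3 probes of VEGFA and all 3 of PROX1 lie below 0 with filled points, the 4 PECAM1 probes lie between -0.05 and 0.11, and the 2 VWF probes fall on either side of the threshold.

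ICAM1, the leukocyte-binding protein, was the only member that was higher in the infarct core than in both other regions. The level ran from 0.72 through 1.45 to 1.63 in the normal region, from 0.53 through 1.36 to 1.65 in the border zone and from 1.64 through 2.21 to 2.51 in the infarct core. Every infarct array lay above every normal array, while the border range covered the normal one and met the infarct range at its top. The difference from the normal region was 0.92 ± 0.17, or 1.89-fold (adjusted p = 9.75e-05), higher in 6 of 6 pigs. The difference from the border zone was 0.97 ± 0.14, or 1.96-fold (adjusted p = 2.77e-05), higher in 9 of 9 pigs, and that between border zone and normal region was -0.05 ± 0.17 (adjusted p = 0.918).

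Macrophage markers, like ICAM1, were higher in the infarct core. All 5 measured genes of the 10 listed passed as higher in the infarct core than in the normal region, with a median difference of 1.01, and all 5 were well above background on every array. Their summed level ran from 17.9 to 30.1, 29.9 to 50.5 and 50.8 to 85.3 in medium normal, border and infarct arrays, and from 18.0 to 24.3, 13.8 to 38.3 and 28.9 to 65.0 in the secretome arm. The 2 did not go together on every array: the border array of medium pig 40 had a sum of 50.5 and the lowest ICAM1 level of all, 0.53. The 4 measured fibroblast markers rose as well, by a median of 3.20, and so did the 3 measured genes of blood and lymphoid cells, by a median of 1.86. Of the pericyte and smooth muscle genes 2 of 8 rose and 4 fell, and of the mesothelial genes 2 of 4 rose. ACTA2 is among those that fell by its brightest probe, but its 7 probes ranged from -0.94 to 2.64. Over all genes 27.4% were higher and 30.9% lower in this comparison. The part of these cell types in the ICAM1 result was not tested.

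Between border zone and normal region none of the 7 genes passed, where 0.613% of all genes did, and 3 of the 7 (VEGFA, LYVE1 and NOS3) had an unadjusted p under 0.05 in limma, as did 17.4% of all genes. All 7 fitted differences were below 0, with a median of -0.59 against -0.03 over all genes; with normexp background correction those of PECAM1 and ICAM1 turned to 0.05 and 0.16. Without the border array of pig 40 the NOS3 difference went from -0.50 to -0.28 and that of VWF from -0.70 to -0.39. The LYVE1 difference of -0.73 ran from -1.19 to -0.27 with a pig or array left out. Between infarct core and border zone 4 of 7 passed, VEGFA and PROX1 lower and LYVE1 and ICAM1 higher, where 52.1% of all genes did (25.6% higher and 26.5% lower). The share of members called is thus near that of all genes in each region comparison.

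**Figure D4:**
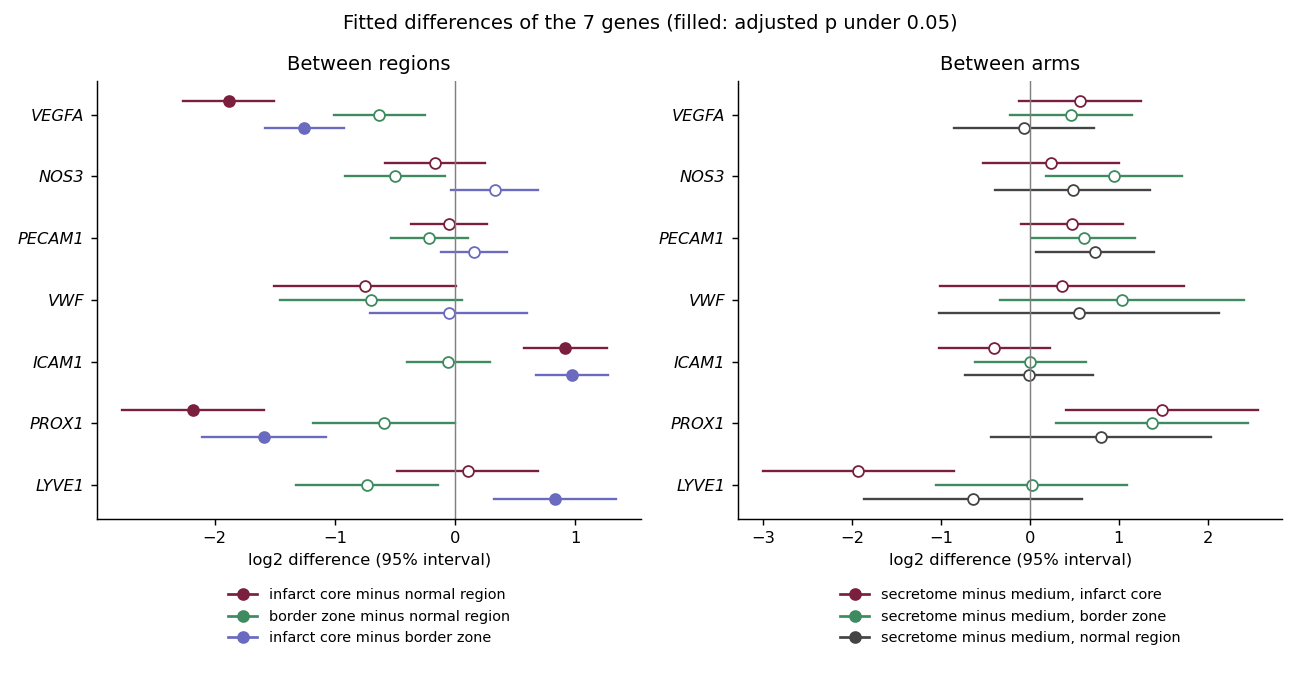
Fitted log2 differences of the 7 genes (horizontal axis) with 95% intervals, between regions on the left and between secretome and medium in each region on the right; filled points have an adjusted p under 0.05. Filled points appear on the left only, for VEGFA, PROX1 and ICAM1 in both infarct-core comparisons and for LYVE1 against the border zone.

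The study compared secretome with medium, and in no region did any of the 7 genes pass that test. In the infarct core 0.0322% of all genes passed, and in the border zone and the normal region 0% did. At an unadjusted p under 0.05 in limma, 2 of the 7 differed in the infarct core, 3 in the border zone and only 1, PECAM1, in normal tissue, where 5.46%, 8.83% and 1.42% of all genes did. With 3 medium pigs the intervals are wide, so a p that misses the threshold does not show that the arms were alike.

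LYVE1 showed the widest gap between arms. In the infarct core its level was -1.48, -1.47 and 0.25 in the medium pigs 10, 18 and 40, and -3.63 at the lowest, -2.98 at the median and -1.85 at the highest in the 6 secretome pigs. The arms do not overlap there, and the medium array that stands highest is again that of pig 40. The difference was -1.93 ± 0.52 (95% interval -3.00 to -0.86, unadjusted p = 0.0012), 3.81-fold lower with secretome, and did not pass over all probes (adjusted p = 0.710). Without the infarct array of pig 40 it was -1.54, and without pig 40 altogether -1.36. It was -1.16 under normexp background correction and -0.72 in the authors' deposited values. Within scan series 1 it was -2.15 and within series 2 -1.43, with 1 medium pig in series 2.

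In the border zone LYVE1 did not separate the arms. The medium levels were -3.68, -2.31 and -2.13, the secretome levels ran from -4.03 through -2.65 to -1.73, and the difference was 0.02 ± 0.52 (adjusted p = 0.993). In the normal region the 2 medium arrays were at -2.40 and -1.51 and the 4 secretome arrays at -2.64, -2.46, -2.44 and -2.08, with a difference of -0.64 ± 0.59. Without pig 40 these differences were 0.31 and -0.33. The gap between arms was larger in the infarct core than in the border zone by -1.95 ± 0.49 (unadjusted p = 0.000689), and this test of the difference itself did not pass either (adjusted p = 0.739). The macrophage sum had a median of 49.6 in secretome infarct arrays against 84.7 in medium, with overlapping ranges (28.9 to 65.0 and 50.8 to 85.3). None of the 5 measured macrophage markers passed between the arms there, and none had an unadjusted p under 0.05 in limma. Their median difference was -0.55, and the highest was 0.16 (FOLR2). The part of macrophage content in the LYVE1 values was not tested.

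PROX1 ran the other way. Its infarct levels were -0.71, -1.89 and -3.70 in the medium pigs 10, 18 and 40, against -1.37 at the lowest, -0.94 at the median and 0.43 at the highest with secretome, so that pig 10 lies within the secretome range. The difference was 1.48 ± 0.52, or 2.79-fold higher with secretome (unadjusted p = 0.00954, adjusted p = 0.974). In the border zone it was 1.37 ± 0.52 (adjusted p = 0.662), where the medium pigs stood at 0.92, -0.95 and -1.33 and the secretome pigs from 0.03 through 1.13 to 1.51. Without pig 40 the infarct-core difference was 0.68 and the border-zone difference 0.93. Within scan series 1 they were 1.71 and 1.53, within series 2 only 0.56 and 0.52, and the infarct-core difference was 0.27 under normexp. For normal tissue the PROX1 difference was 0.80 ± 0.59, which turned to -0.09 within series 2.

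The 8 measured cardiomyocyte markers had a median difference of 1.78 between secretome and medium in the infarct core, with none called and 4 at an unadjusted p under 0.05, and of 0.47 in the border zone. Their summed level in the medium infarct arrays was 3202, 1984 and 125 (pigs 10, 18 and 40), and pigs 10 and 18 lie within the secretome range of 1492 to 5762. In the infarct core the VEGFA levels were -0.30, 0.10 and -0.82 in medium and ran from -0.30 through 0.08 to 1.09 with secretome, and the arms overlap. The VEGFA difference was 0.56 ± 0.33 (adjusted p = 0.974) in the infarct core and 0.32 there without pig 40, 0.46 ± 0.33 in the border zone, and -0.07 ± 0.38 for normal tissue, where the 2 medium arrays at 1.91 and 2.02 stood just above the 4 secretome arrays at 1.81 to 1.86. The part of heart muscle content was not tested.

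NOS3, PECAM1 and VWF had positive fitted differences between secretome and medium in every region. For NOS3 in the border zone the medium levels were 2.14, 2.03 and -0.18 and the secretome levels ran from 2.02 through 2.19 to 2.65, a difference of 0.94 ± 0.37 (adjusted p = 0.662). Without the border array of pig 40 it was 0.29. For VWF in the border zone the difference fell likewise from 1.04 ± 0.66 to 0.11 without that array, and turned to -0.12 without pig 40.

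For PECAM1 the differences were 0.47 ± 0.28 in the infarct core, 0.60 ± 0.28 in the border zone, and 0.73 ± 0.32 for normal tissue, none of which passed (adjusted p = 0.974, 0.685 and 1.00). In the border zone the medium levels were 4.44, 3.58 and 3.08 and the secretome levels ran from 3.81 through 4.27 to 4.90. In the normal region medium stood at 4.46 and 3.46 and secretome at 4.35, 4.49, 4.82 and 4.95. Within scan series 1 the border difference was 0.67 and within series 2 it was 0.16, and without the border array of pig 40 it was 0.30.

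ICAM1 did not pass between the arms in any region. The infarct levels were 2.41, 2.21 and 2.51 in medium and ran from 1.64 through 1.92 to 2.43 with secretome, a difference of -0.40 ± 0.30 (95% interval -1.03 to 0.23, adjusted p = 0.974). In the border zone the medium levels were 1.44, 1.65 and 0.53, the secretome levels ran from 0.75 through 1.26 to 1.51, and the difference was 0.00 ± 0.30. The medium value of 0.53 is that of pig 40, without whose border array the difference was -0.37, and -0.33 without the pig. The infarct-core difference was -0.12 without the infarct array of pig 40 and turned to 0.10 under normexp. No member passed the test of whether the gap between arms differed between regions, and LYVE1 alone had an unadjusted p under 0.05, for both such tests (0.000689 and 0.0334).

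The partners of these genes were read from 9 lists of related pathways, in which 75 genes, each counted once, were measured. Of them 49 (65.3%, against 58.3% of all genes) passed in the infarct core against the normal region and 45 (60%, against 52.1%) against the border zone. None passed between border zone and normal region, where 14 of the 75 had an unadjusted p under 0.05 in limma, as did 17.4% of all genes. Between the arms none passed in any region. At an unadjusted p under 0.05 in limma there were 9, 10 and 2 of the 75 in infarct core, border zone and normal region. The shares of all genes were 5.46%, 8.83% and 1.42%. The median difference of all genes between infarct core and normal region was -0.07, and 27.4% of all genes were higher and 30.9% lower, which is the background for each list's median and counts below.

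Of the VEGF ligands and receptors, 5 of 11 were measured, and 3 were lower in the infarct core and none higher, with a list median of -0.58. Besides VEGFA these were VEGFD, the lymphatic growth factor (-1.99 ± 0.37), and KDR, the main signalling receptor for VEGFA (-0.58 ± 0.22). FLT1, the high-affinity receptor, stood at -0.53 ± 0.25 and did not pass (adjusted p = 0.0790). Of the angiopoietins and Tie receptors, ANGPT1, the vessel-stabilising ligand, was higher (2.0 ± 0.34), its receptor TEK was lower (-0.42 ± 0.13), and ANGPT2, the antagonist ligand, was at 0.07 ± 0.13.

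Of the 24 general endothelial genes 15 were measured; 1 was higher, 4 were lower and 10 did not pass, with a median of -0.19. The one that rose was CD34 (1.69 ± 0.26), a surface sialomucin that fibroblasts and progenitor cells also carry. Among those that fell were CAV1, the coat protein of caveolae (-0.57 ± 0.11), and CLDN5, the tight-junction claudin of endothelium (-0.82 ± 0.21). PECAM1 and VWF are in the larger group that did not pass.

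Of the nitric oxide and cyclic GMP genes 8 of 16 were measured, 3 higher and 4 lower, with a median of -0.37; only NOS3 did not pass. Among those that rose were PRKG1, the cyclic GMP-dependent kinase (1.55 ± 0.19), and GUCY1A3, a subunit of soluble guanylate cyclase (1.36 ± 0.19). NOSIP, which binds NOS3 (-0.61 ± 0.11), and CAV1, which inhibits it, were among the 4 that fell.

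Of the leukocyte adhesion genes 14 of 17 genes were measured, 11 were higher, none was lower and 3 did not pass, with a median of 0.93. ICAM1 (0.92) stood near that median and PECAM1, in the same list, did not pass. ITGB2, the integrin chain that binds ICAM1, rose by 1.83 ± 0.20, ITGA4, an integrin chain of lymphocytes and monocytes, by 1.75 ± 0.31, and SELP, the selectin of activated endothelium and platelets, by 1.71 ± 0.27. Of these, ITGB2 and ITGA4 are leukocyte genes rather than endothelial ones.

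Of the endothelial genes of clotting and clot lysis, 10 of 13 were measured, with 6 higher, 2 lower and a median of 0.59. THBS1, a matrix protein that restrains vessel growth, rose by 2.05 ± 0.28, PLAT, tissue plasminogen activator, by 1.75 ± 0.27, and ANXA2, its cell-surface receptor, by 1.69 ± 0.24. The 6 THBS1 probes ranged from 0.87 to 2.31. VWF, in the same list, did not pass.

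Of the lymphatic genes 8 of 17 were measured, 2 higher, 2 lower and 4 not passing, with a median of -0.06. NR2F2, the venous and lymphatic transcription factor that partners PROX1, rose by 1.51 ± 0.17 and CCL21, the chemokine of lymphatic endothelium, by 1.28 ± 0.24, while PROX1 and VEGFD fell. Of the Notch and arteriovenous genes 10 of 12 were measured, 2 higher and 4 lower, with a median of -0.02. The arterial Notch ligand DLL4 (-1.44 ± 0.19) and the target HEY2 (-1.46 ± 0.26) fell, and JAG1, another ligand, rose (0.61 ± 0.14); a second DLL4 probe moved less, by -0.47.

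Of the 14 genes that respond to low oxygen or regulate VEGFA, 11 were measured, 2 were higher, 6 were lower and the median was -0.57. PDK1, the kinase that restrains pyruvate oxidation (-1.41 ± 0.18), and the oxygen-sensing hydroxylases EGLN1 (-1.12 ± 0.19) and EGLN3 (-1.54 ± 0.28) fell, and LDHA, lactate dehydrogenase, rose (1.04 ± 0.18).

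**Figure D5:**
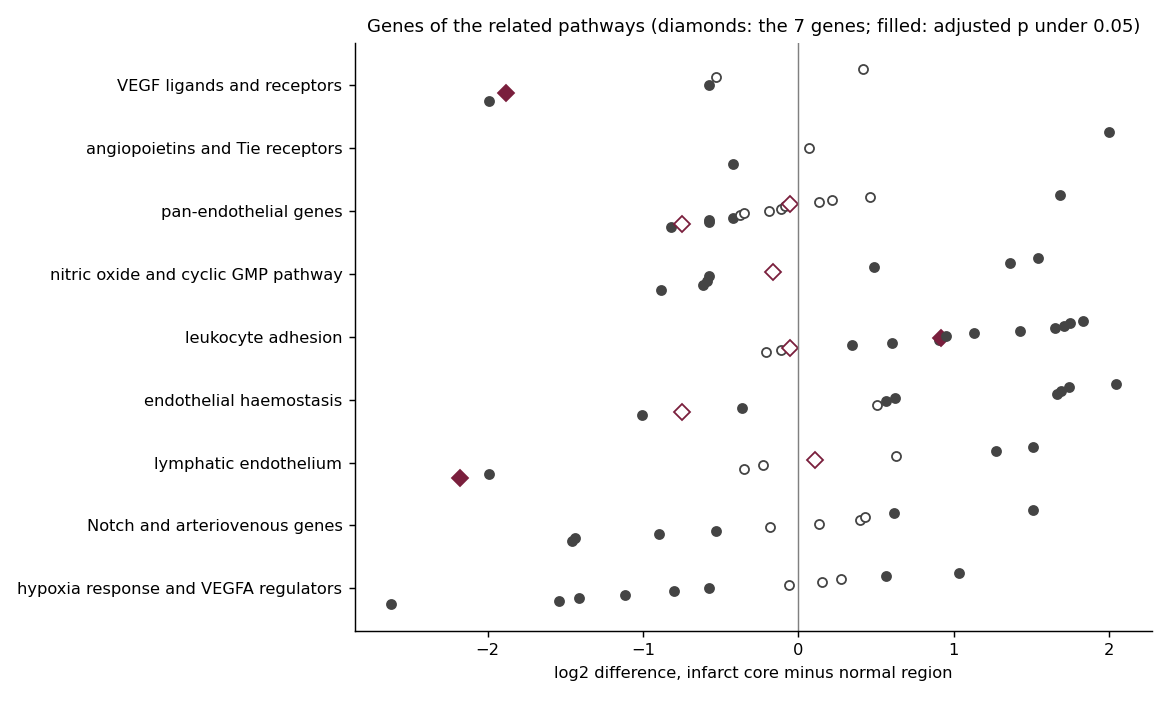
Fitted log2 difference, infarct core minus normal region (horizontal axis), of every measured gene of the 9 pathway lists (vertical axis); diamonds are the 7 genes described here and filled points have an adjusted p under 0.05. Leukocyte adhesion genes lie to the right with no filled point below 0, PROX1 is the lowest of the lymphatic genes, VEGFA lies next to VEGFD at the low end of the VEGF genes, and the general endothelial genes lie around a median of -0.19.

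Across the 24 arrays, after removing the mean of each scan series, the 7 genes fell into no single pattern. Over their 21 pairs Pearson's r ran from -0.84 (VEGFA with ICAM1) to 0.90 (VEGFA with PROX1). NOS3 and VWF followed each other at 0.85 and NOS3 and PECAM1 at 0.68, whereas PROX1 and LYVE1, both lymphatic markers, gave -0.40. The arrays share pigs, regions and the scaling of each array, so these values only describe.

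The genes most like each member, by the same measure over 6188 genes, differed between members as well. VEGFA was closest to MRPL46, a protein of the mitochondrial ribosome (0.98), EDNRA, an endothelin receptor (0.98), and TACO1, a mitochondrial translation factor (0.98). PROX1 was closest to ADRA1A, an adrenergic receptor of heart muscle (0.97), PFKM, the muscle phosphofructokinase (0.96), and DDO (0.96). ICAM1 was closest to PDIA4, an endoplasmic reticulum chaperone (0.96), RIPK3, a kinase of cell death signalling (0.95), and ZNF503 (0.94).

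LYVE1 was closest to CD209, a lectin of dendritic cells and macrophages (0.86), then to CCBE1, a factor of lymphatic growth (0.79), and SLC11A2, an iron transporter (0.74). NOS3 was closest to LATS2, PRKAB1 and RRP8 (0.95, 0.93 and 0.93), VWF to EPS15L1, POLR3A and ZNF777 (0.95, 0.94 and 0.93), and PECAM1 to RAE1, RAB3GAP2 and PEAR1 (0.79, 0.79 and 0.75). For NOS3 and VWF the border array of pig 40, the lowest for both, is among the points behind these values.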

How the data were processed

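Each of the 24 arrays is 1 tissue sample. Per the file headers, the authors' scanner files came from Agilent Feature Extraction 10.7.3.1 and hold processed intensities, not normalized between arrays; per the labels, 100 ng of RNA with an integrity number above 6 was labelled with Cy3. The authors' deposited table holds log2 values, with a normalization not given in the sources used here; the submitters' processing notes name limma 3.14.4. On probe-centred values, 24 of 24 of its columns correlated best with their own array (r 0.728 to 0.825), and its column medians were 7.684 to 7.692.

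Spots marked as outliers were left out. Levels are log2 of the processed intensity minus the array's 75th percentile. Probes were kept where at least 3 of the 24 arrays had them well above background, and a gene was read from its brightest probe. Symbols came from the gene name (3294 probes as current symbols), a synonym (50), a RefSeq accession (9240) or a gene ID (1466); 29329 probes had none. Limma 3.58.1 in R 4.3.3 fitted a mean per region and arm with pig as a random block (correlation 0.548), after a check on simulated data. Pairing is by animal. Same-pig arrays, always in the same scan series, deviated together with a mean r of 0.583 over 21 pairs (0.119 to 0.778). Arrays of different pigs gave 0.439 within a scan series (94 pairs) and -0.454 between the series (118 pairs). With scan series as a covariate the correlation within pigs was 0.204, so much of the likeness is shared by a series. Pigs are separate animals, and their number limits the precision. The design text gives 8 pigs per arm; those beyond the 9 are not analysed here.

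The genes and lists were chosen with earlier results of these data known. The named partners are up to 4 per list, those with the smallest p between infarct core and normal region, of which 1 is not reported here; genes most alike are the 3 with the highest r. Alternatives tried were quantile normalization, normexp with an offset of 50, another percentile base, the deposited log2 values, other probe filters, block and scan-series settings, pooled arms, other probes, and each pig or the arrays of pig 40 left out.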

Additional observations from a re-analysis of the deposited data

Results flagged for a closer look

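VWF in the normal region of secretome pig 16 stood apart from the rest of its group. Its level was 3.63, against 5.24 to 5.54 in the other 3 pigs, and the gap to the nearest was 0.842 of the whole range, above the limit of 0.829 for 4 samples. Pig 16 is the pig of that group in scan series 1. It was 1 of 21 groups of levels examined, and chance gives such a gap in about 1 group in 20.

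The median LYVE1 difference between infarct core and normal region had opposite signs in the arms. The median within-pig difference was 0.48 in the 2 medium pigs, both higher in the infarct core, and -0.54 in the 4 secretome pigs, all lower. Limma's test of the difference between arms gave -1.29 ± 0.57 and did not pass (adjusted p = 1.00).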

How the results depend on the processing

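The calls of VEGFA, PROX1 and ICAM1 against both other regions held in every alternative and probe run. The count of members called between infarct core and normal region was 3, 3 to 5 with a pig or array left out (5 without the border array of pig 40, which adds VWF and NOS3), and 2 to 4 otherwise; the 2 is from the deposited table, which holds 4 of the 7 genes. Between infarct core and border zone it was 4, and 3 to 6 over all alternatives. It was 0 in every alternative for the border zone against the normal region, the arms and their interactions. The replicate block, with pig as a fixed term, gave 3 and 4 calls, the same counts, and changed no call (VEGFA -1.85, PROX1 -2.06, ICAM1 0.95 between infarct core and normal region); with no replicate block LYVE1 lost its call (0.83, adjusted p = 0.0810). LYVE1 against the border zone was also lost under normexp (0.41), slide as a block (0.75) and pooled arms (0.51). PECAM1 passed there under quantile normalization (0.42) and in the deposited values (0.42), and NOS3 under quantile normalization (0.43) and without pig 18 (0.54). Normexp moved the median of all probes by -0.16 (infarct core against normal), -0.22 (border against normal), 0.14 (infarct core against border), -0.39 (arms, infarct core) and 0.10 (arms, normal region). The causes of these changes were not tested. Arm differences rest on 3 medium pigs, 2 in the normal region, and cannot be fitted with pig as a fixed term.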
